A study of Mus musculus with 6 samples.

Results

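The 32 genes described here encode the glucose and lactate transporters, the enzymes from hexokinase to lactate dehydrogenase, the enzymes that control fructose-2,6-bisphosphate and entry of pyruvate into mitochondria, and the pentose phosphate pathway. They were taken by symbol from a table of 41254 gene symbols and arranged in 17 steps of the pathway. All 32 were found and all 32 passed the filter on low counts that left 14653 genes for testing. None lay at a locus whose estimate had failed.

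Total RNA of DN3a thymocytes of adult C57BL/6 mice was depleted of ribosomal RNA and sequenced, in 3 libraries labelled wild type and 3 labelled Tg_Cd2_GATA3. The second genotype is called transgenic below. The labels do not explain the transgene further, and they do not say whether libraries of a group came from separate animals, and the p-values given here therefore reflect the variation among these libraries alone. DN3a cells are T cell precursors without CD4 and CD8 that rearrange the T cell receptor beta genes.

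Glycolysis splits glucose into pyruvate in the cytosol with a net gain of ATP, and lactate dehydrogenase returns the NADH formed on the way to NAD+ by making lactate. The pentose phosphate pathway branches off at glucose-6-phosphate, makes NADPH in its oxidative arm, and supplies ribose for nucleotides. Thymocytes take up more glucose and raise many of these enzymes when they start to proliferate after beta selection, the stage that follows DN3a, and MYC and HIF-1 are among the factors known to act on the genes.

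The libraries held 39022272 to 46985605 fragments, and the 32 genes took between 0.665% and 0.768% of them. Gata3 stood at 19.8, 14.99 and 18.2 FPKM (fragments scaled by transcript length and library depth) in replicates 1, 2 and 3 of wild type, and the transgenic replicates had 25.8, 21.3 and 25.4 FPKM. Its log2 fold change was 0.41 ± 0.10 (SE; adjusted p = 0.17 in edgeR), and DESeq2 gave an adjusted p of 0.00712. Y-linked RNA was present in wild type replicate 1 (18522 fragments) and transgenic replicate 3 (16840 fragments), against 16 to 26 fragments in each other library. Summed FPKM of myeloid markers was 16.2 to 19.6 in wild type and 18.2 to 20.3 in transgenic libraries, of B cell markers 29.2 to 34.1 and 31.5 to 37.8, and of thymic stroma markers 68.9 to 73.9 and 69.6 to 82.6. Red cell markers summed to 2.27, 1.08 and 8.68 FPKM in wild type and 5.53, 8.16 and 17.1 FPKM in transgenic libraries, and the 5 that were tested were all above 0 (median log2 fold change 1.498), with 0 at an unadjusted p under 0.05 in edgeR.

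Of 12 markers of DN3a cells and of other thymocyte stages, 5 had a log2 fold change below 0 and 7 above 0. Il2ra, a DN3 marker, was at 82.1 to 96.1 FPKM, with a log2 fold change of -0.17 ± 0.06 (adjusted p = 0.232 in edgeR). Cd8b1, a subunit of CD8, was at 4.91, 7.78 and 6.41 FPKM in wild type and 3.97, 2.25 and 2.41 FPKM in transgenic libraries (log2 fold change -1.15 ± 0.26; adjusted p = 0.159 in edgeR). Cd4 and Cd8a, at or below 3.30 FPKM in each library, had log2 fold changes of -0.89 ± 0.22 (adjusted p = 0.162 in edgeR) and -1.34 ± 0.42 (adjusted p = 0.221 in edgeR). By CPM these 4 of the 12 markers were lower in transgenic libraries without overlap, where 10.1% of all genes were. Notch1 was the 1 marker that was higher without overlap, beside 8.73% of all genes. Its log2 fold change was 0.19 ± 0.06 (adjusted p = 0.219 in edgeR and 0.0378 in DESeq2). Cd44 was at 1.11 to 1.73 FPKM and overlapped (log2 fold change 0.10 ± 0.23). Ptcra, Cd3e, Rag2, Dntt and Kit overlapped too, with log2 fold changes of 0.10, 0.07, 0.05, 0.14 and 0.17. Rag1 also overlapped, at -0.08 ± 0.06. The part of these markers in the differences below was not tested.

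Cell cycle and stress genes were counted by list, and the lists were chosen with earlier results of these data known. Of 20 genes of G2 and mitosis, 20 were lower at an unadjusted p under 0.05 in edgeR, where 7.7% of all genes were, and their summed level was 981 to 1319.6 FPKM in wild type and 776 to 949 FPKM in transgenic libraries. Of 20 S phase genes 18 did so, with sums of 2160.2 to 2509 FPKM and 1928 to 2135 FPKM. Of 17 tested immediate early and stress genes 10 were higher at that threshold, where 5.71% of all genes were. Their sums overlapped, at 2597 to 2896 FPKM in wild type and 2744 to 2868 FPKM in transgenic libraries, and Hspa8, with a log2 fold change of -0.07 ± 0.05, made up 84.1% to 91.7% of them. After adjustment edgeR called 0 genes of these 3 lists. DESeq2 called 20 of 20 G2 and mitosis genes and 13 of 20 S phase genes lower, where it called 3.36% of all genes lower. It called 2 of 12 stress genes higher, against 1.72% of all genes. The part of these lists in the differences of the glycolytic genes was not tested. In bulk RNA, fewer cells of a kind and less RNA per cell cannot be told apart.

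Sequences are shown for the enzyme whose alternative exon is measured and for promoters of genes on which the comparison turns. The M1 and M2 forms of pyruvate kinase come from 1 gene, Pkm, by use of alternative exons of equal length, and in the GENCODE transcripts on GRCm38 these were exons of 167 bases. The exon of M1 lay at chr9:59675029-59675195 and that of M2 at chr9:59675568-59675734, both on the plus strand. Capitals mark the positions at which the exons differ, leaving 103 identical bases (61.7%).
Pkm M1 exon: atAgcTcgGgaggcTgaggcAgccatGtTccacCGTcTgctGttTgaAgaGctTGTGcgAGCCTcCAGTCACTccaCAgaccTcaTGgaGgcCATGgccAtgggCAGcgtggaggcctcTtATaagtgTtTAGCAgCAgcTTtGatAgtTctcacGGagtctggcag
Pkm M2 exon: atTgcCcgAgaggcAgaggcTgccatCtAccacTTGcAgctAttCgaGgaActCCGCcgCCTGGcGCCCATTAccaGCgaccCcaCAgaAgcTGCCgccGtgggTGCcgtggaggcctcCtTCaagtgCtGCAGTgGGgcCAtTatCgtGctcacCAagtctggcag

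Promoter windows of 300 bases, 250 before and 50 after a gene's start, were taken from RefSeq on GRCm38.p6, and 31 of the 32 genes had at least 1. Slc2a3 was not matched. For the 10 genes with several windows, the one nearest the start of the main transcript was counted. CACGTG, the E-box that MYC and MAX are known to bind and which reads the same on both strands, was in 3 of the 31 windows (9.68%), those of Ldha, Slc16a1 and Pfkfb3, against 7.15% of all 32851 promoters. ACGTG on either strand, the core of the element bound by HIF-1, also lies inside every CACGTG and was in 13 of the 31 (41.9%), against 19.6% of all promoters. The 32851 promoters were not limited to the 14653 genes tested here, so the shares describe unlike sets, and enrichment was not tested. With any window of a gene counted, 4 genes held CACGTG, Pfkm being the other, and 15 held ACGTG. The windows of Ldha, which holds CACGTG at 2 places, and of Slc16a1 are shown beside that of Ldhb, which has neither motif. They lie at chr7:46845554-46845853 (plus strand), chr3:104638414-104638713 (plus strand) and chr6:142507908-142508207 (minus strand). Capitals mark ACGTG on either strand, so that a match on both strands reads CACGTG.
Ldha promoter: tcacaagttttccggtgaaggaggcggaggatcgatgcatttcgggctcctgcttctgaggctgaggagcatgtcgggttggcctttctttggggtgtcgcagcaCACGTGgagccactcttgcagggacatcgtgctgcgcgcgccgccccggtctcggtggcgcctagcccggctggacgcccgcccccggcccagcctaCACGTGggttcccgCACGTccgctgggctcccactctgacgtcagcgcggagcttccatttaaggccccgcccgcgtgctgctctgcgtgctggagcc
Slc16a1 promoter: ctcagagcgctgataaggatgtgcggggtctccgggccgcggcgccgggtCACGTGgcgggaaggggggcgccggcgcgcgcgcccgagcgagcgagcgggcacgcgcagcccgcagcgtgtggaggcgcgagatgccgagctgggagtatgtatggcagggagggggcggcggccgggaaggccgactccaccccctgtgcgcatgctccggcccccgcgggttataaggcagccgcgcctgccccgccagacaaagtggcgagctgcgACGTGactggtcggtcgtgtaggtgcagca
Ldhb promoter: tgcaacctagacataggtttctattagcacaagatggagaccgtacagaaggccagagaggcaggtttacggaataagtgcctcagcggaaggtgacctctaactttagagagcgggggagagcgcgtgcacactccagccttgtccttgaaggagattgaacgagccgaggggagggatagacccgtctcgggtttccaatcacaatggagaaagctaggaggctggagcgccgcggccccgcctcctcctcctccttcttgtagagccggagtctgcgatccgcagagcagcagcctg
These matches are letters in a window and do not show binding. Of the 13 genes with ACGTG, 9 had a log2 fold change below 0, as had 14 of the 18 without it. The window of Pfkp, the gene with the largest difference of the 32, held neither motif.

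Levels can be set beside each other between genes on the FPKM scale, which divides by transcript length. Gapdh, which oxidises glyceraldehyde-3-phosphate, was highest with a mean of 528 FPKM over the 6 libraries, followed by Ldha (363 FPKM), which makes lactate, and Pkm (361 FPKM). At the other end stood Slc16a3, a lactate exporter, at 1.24 FPKM, and Aldoc at 4.46 FPKM. The steps of glyceraldehyde-3-phosphate dehydrogenase, the non-oxidative pentose phosphate arm, lactate dehydrogenase and pyruvate kinase together held 54.5% ± 0.55 (SD, n = 6) of the FPKM of the 32 genes. The 3 lowest steps were control of fructose-2,6-bisphosphate (15.8 FPKM), glucose uptake (18.0 FPKM) and hexokinase (37.5 FPKM), 2 of which open the pathway.

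**Figure D1:**
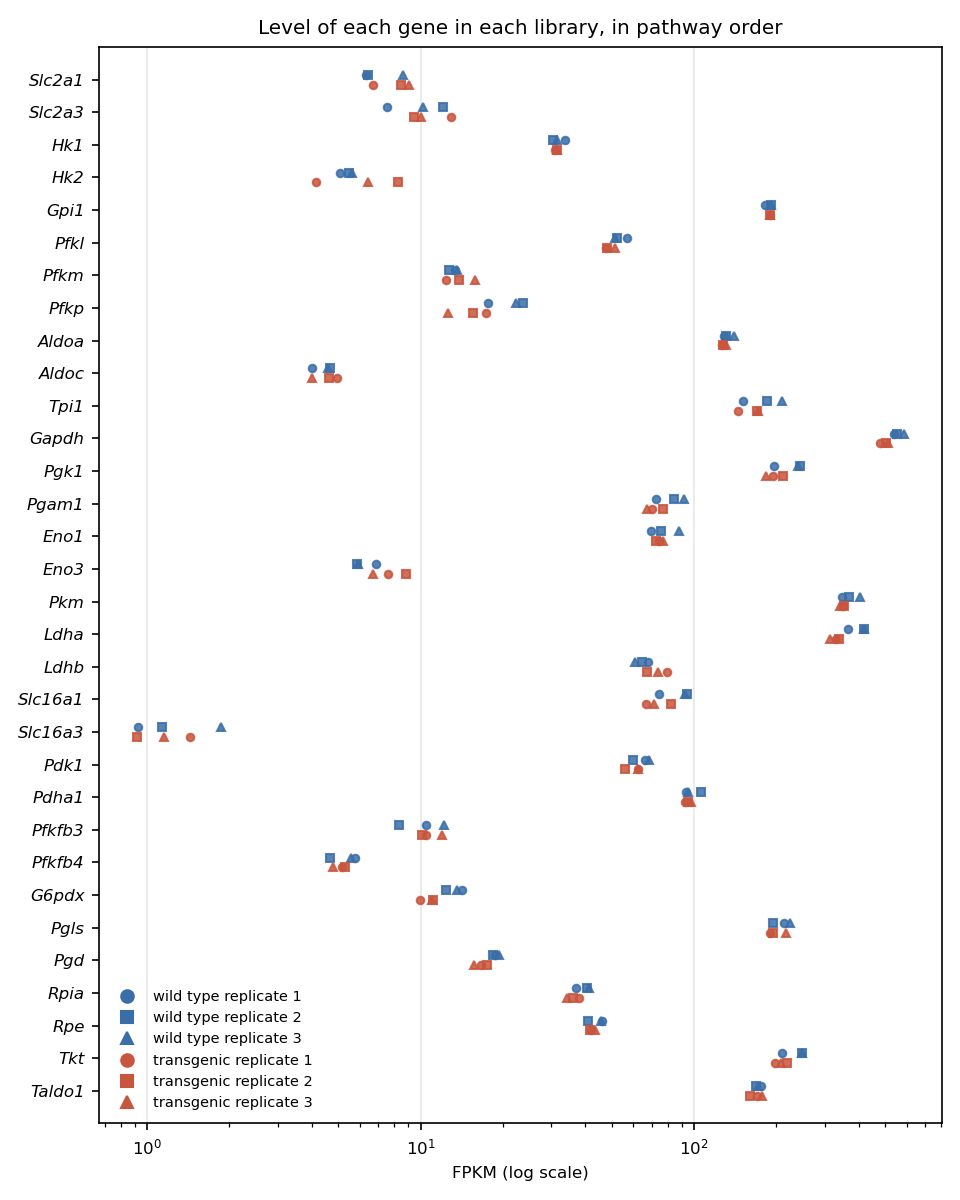
FPKM (log scale, x axis) of each of the 32 genes (y axis, in pathway order) in the 3 wild-type (blue) and 3 transgenic (red) libraries, with the shape giving the replicate. Levels run from about 1.24 FPKM for Slc16a3 to 528 FPKM for Gapdh, and for most genes the spread between genes is far wider than that between libraries.

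None of the 32 genes passed an adjusted p of 0.05 in edgeR's quasi-likelihood test, with Benjamini-Hochberg adjustment over all genes tested. The test called 2 of the 14653 genes, 0.0136%. At an unadjusted p under 0.05 the same test placed 8 genes lower in transgenic libraries, against 7.7% of all genes: Pfkp, Gapdh, Pgk1, Pgam1, Ldha, Slc16a1, G6pdx and Tkt. Ldhb alone was higher at that threshold, against 5.71% of all genes. The normalised counts (CPM, counts scaled to a common library size) of the groups did not overlap for 6 genes that were lower, Pfkp, Gapdh, Ldha, G6pdx, Pgd and Rpe, where 10.1% of all genes did so. Ldhb was again the 1 gene that was higher without overlap, beside 8.73% of all genes.

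The log2 fold change was below 0 for 24 of the 32 genes, and below 0 for 7293 of the 14653 genes tested. Its median was -0.08 over the 32 and 0.00109 over all genes tested. The median was -0.14 for 7 pentose phosphate genes, -0.09 for 17 enzymes from hexokinase to lactate dehydrogenase, -0.20 for 4 transporters and 0.07 for 4 control enzymes. All 7 pentose phosphate genes were below 0, and 3 of 4 control enzymes were above it. Some of these values were smaller than their SE, among them those of Pgls (-0.01 ± 0.06), Taldo1 (-0.04 ± 0.05) and Pdk1 (0.02 ± 0.08), so their signs carry little weight. The groups were chosen with earlier results of these data known, so these counts are descriptions.

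**Figure D2:**
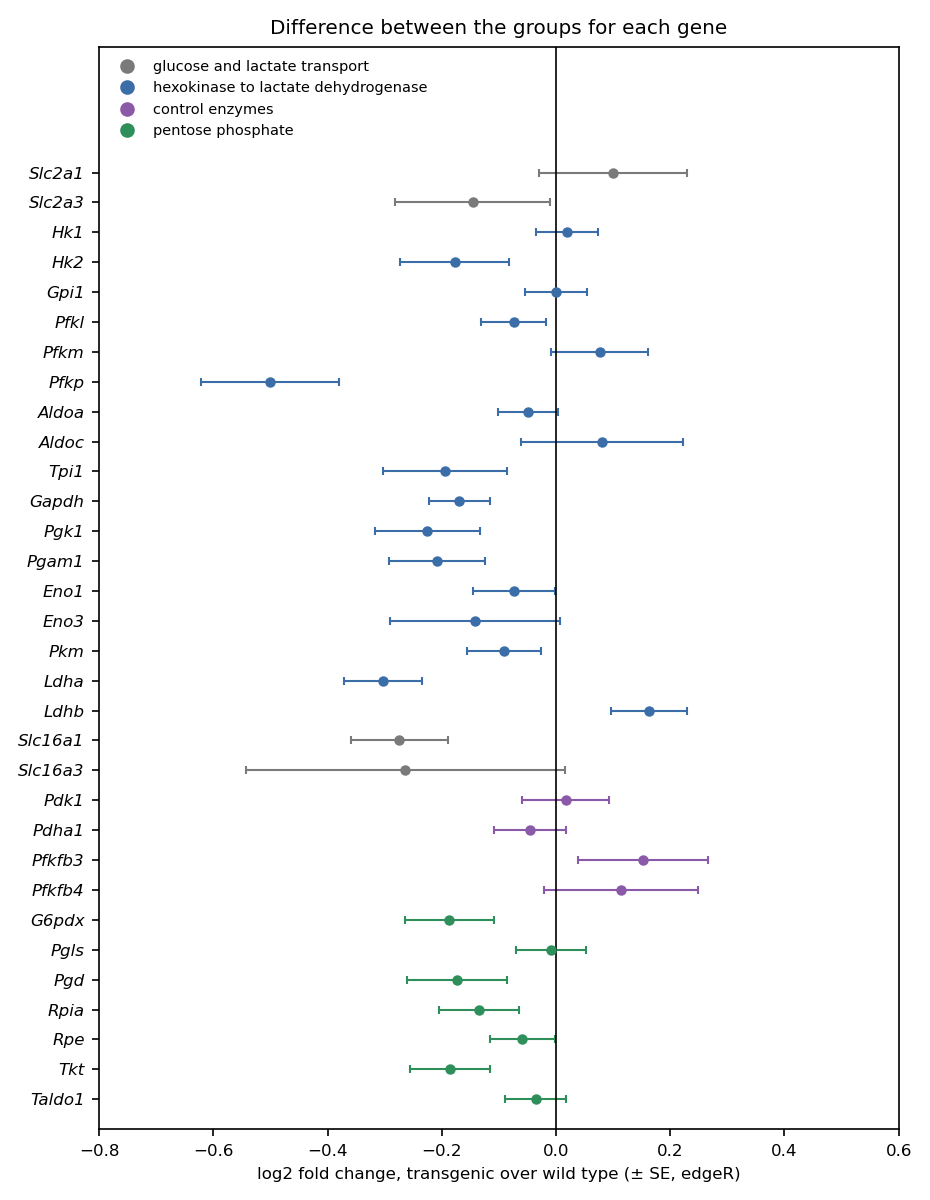
Log2 fold change, transgenic over wild type, with its standard error (x axis; edgeR, 3 against 3 libraries) for each of the 32 genes (y axis), coloured by role. Pfkp lies farthest from 0 at -0.50, Ldhb is at 0.16, and 24 of the 32 points lie below 0.

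Whether any of these genes was called depended on the test and on the libraries used. DESeq2 called 3 of 31 genes given an adjusted p lower, Ldha, Pfkp and Slc16a1, and none higher, where it called 3.36% of all genes lower and 1.72% higher. Without wild type replicate 1, edgeR called 4 lower (Ldha, Pfkp, Slc16a1 and Tkt), and then 2.32% of all genes. Without the 2 libraries with Y-linked RNA, wild type replicate 1 and transgenic replicate 3, it called Ldha and Pfkp lower, and 1.32% of all genes. With a covariate for Y-linked RNA it called Ldha and Pfkp lower, and 1.4% of all genes. With no filter on low counts it called the same pair lower, and 0.485% of all genes. Each other alternative, limma on FPKM included, called 0 of the 32. Of all genes, in either direction, edgeR called 0.625% with failed loci kept and 0.0955% with the replicate block. The rest of these alternatives called 0.0066% to 0.0334% of all genes, so a count of 0 says little about the 32.

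For the 32 genes and for those of G2 and mitosis, wild type replicate 1 lay nearest the transgenic libraries. The mean centred log2(CPM + 0.5) of the 32 genes was -0.01, 0.08 and 0.07 in the wild-type libraries, by replicate number, while the transgenic ones had -0.04, -0.01 and -0.09. For the genes of G2 and mitosis the same measure was -0.04, 0.39 and 0.38 in wild type and -0.18, -0.11 and -0.44 in transgenic libraries. On both lists wild type replicates 2 and 3 were the highest of the 6 libraries and transgenic replicate 3 was the lowest. Wild type replicate 1 was also nearest for S phase genes and regulators of glycolysis. For other HIF targets the nearest was wild type replicate 3 (-0.03), and for stress genes it was wild type replicate 2 (-0.07).

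**Figure D3:**
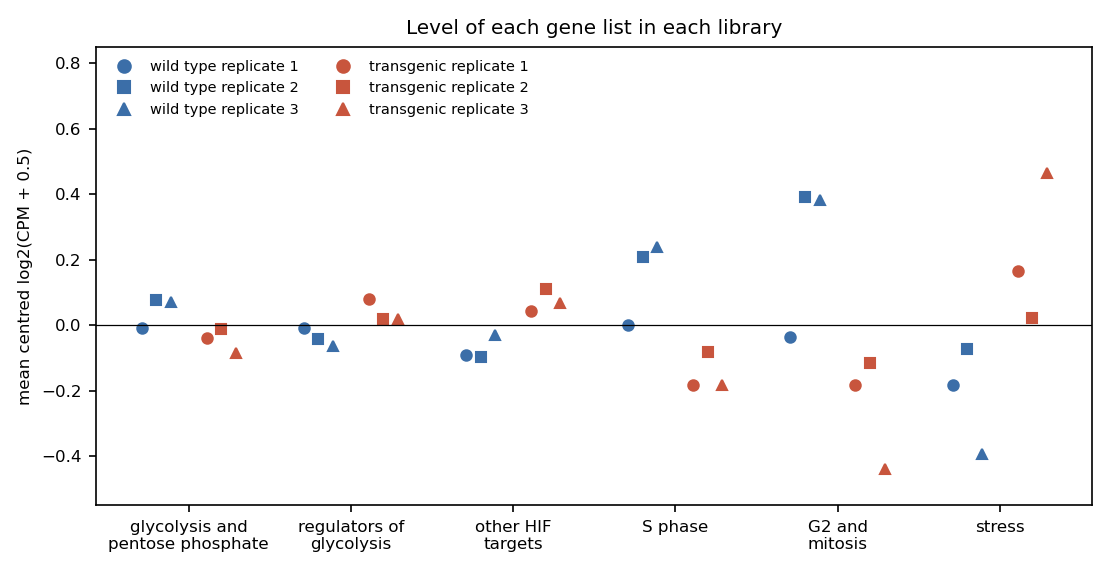
Mean over the genes of a list of log2(CPM + 0.5), with each gene centred on its mean (y axis), for 6 lists (x axis) in wild-type (blue) and transgenic (red) libraries, with the shape giving the replicate. The glycolysis and pentose phosphate genes span -0.09 to 0.08, and the G2 and mitosis genes -0.44 to 0.39.

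Glucose uptake differed little. Slc2a1, the GLUT1 transporter, was at 16.5, 16.6 and 20.7 CPM in wild type and 16.9, 20.3 and 20.5 CPM in transgenic libraries, a log2 fold change of 0.10 ± 0.13 (SE). Slc2a3, the GLUT3 transporter, was at 24.0, 33.9 and 25.5 CPM against 26.9, 23.1 and 25.3 CPM, with a log2 fold change of -0.15 ± 0.14. The ranges of the groups overlapped for both transporters. The 95% intervals of the fold, 0.876 to 1.31 for Slc2a1 and 0.732 to 1.11 for Slc2a3, leave room for differences in either direction. By FPKM the group means of Slc2a3 lay in the other order, 9.95 ± 2.29 against 10.8 ± 1.82 (SD, n = 3 each).

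Hexokinase traps glucose in the cell as glucose-6-phosphate, and Hk1 was its main form. Hk1 was at 154, 154 and 152 CPM in wild type and 152, 165 and 149 CPM in transgenic libraries, which overlap (log2 fold change 0.02 ± 0.05). Hk2, the form that growth signals are known to induce, was at 31.1, 32.8 and 31.4 CPM against 26.0, 31.3 and 27.1 CPM. Its log2 fold change of -0.18 ± 0.10 rested on transgenic replicates 1 and 3, and replicate 2 lay inside the wild-type range. On the FPKM scale Hk2 was instead higher in the transgenic mean, 6.28 ± 2.06 against 5.39 ± 0.28. A transcript of 594 bases took 0%, 0% and 10.2% of the FPKM of Hk2 in wild type and 3.65%, 44.7% and 26.9% in transgenic libraries.

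Gpi1, which turns glucose-6-phosphate into fructose-6-phosphate, was at 467, 481 and 461 CPM in wild type and 479.7, 479.5 and 449 CPM in transgenic libraries. Its 95% interval of the fold ran from 0.920 to 1.09.

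Phosphofructokinase commits the sugar to glycolysis, and its 3 isozymes were unlike each other. Pfkp, the platelet type (chr13:6579768-6648777, minus strand), was at 60.6, 82.8 and 76.4 CPM in wild type and 52.5, 56.6 and 46.3 CPM in transgenic libraries. Every transgenic library lay below every wild-type library, with wild type replicate 1 closest to them. The difference was 1.41-fold, a log2 fold change of -0.50 ± 0.12 (SE, n = 3 each), with a 95% interval from -0.77 to -0.23. Its edgeR adjusted p was 0.159 (unadjusted p = 0.00218), its DESeq2 adjusted p was 0.00216, and the adjusted p over 17 alternatives ranged from 0.00216 to 0.51. Without wild type replicate 1 the log2 fold change was -0.62 (adjusted p = 0.0136 in edgeR), and without the 2 libraries with Y-linked RNA it was -0.55 (adjusted p = 0.0203 in edgeR).

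Pfkl, the liver type and the most abundant form by FPKM, was at 187, 191 and 208 CPM against 184, 189.5 and 183 CPM, a log2 fold change of -0.07 ± 0.06. Pfkm, the muscle type, was at 47.7, 46.4 and 46.3 CPM against 44.4, 50.5 and 53.1 CPM, a log2 fold change of 0.08 ± 0.08. Both overlapped between groups. Pfkm overlaps Senp1 on the other strand (26.4 FPKM), whose log2 fold change was -0.01 ± 0.07. Pfkp overlaps Pitrm1 on the other strand (39.3 FPKM), whose log2 fold change was -0.06 ± 0.06. No source used here says whether the counting used strand, so reads of such pairs cannot be told apart. The 3 isozymes summed to 87.6, 88.6 and 87.1 FPKM in wild type and 77.3, 77.6 and 79.7 FPKM in transgenic libraries, with no overlap. By CPM their sums overlapped, at 295, 319.98 and 331 CPM against 281, 297 and 282 CPM.

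Aldolase and triosephosphate isomerase, which split the hexose and interconvert the trioses, overlapped between groups. Aldoa, the main aldolase, was at 227, 236 and 229 CPM against 219, 232 and 217 CPM (log2 fold change -0.05 ± 0.05). Aldoc, the brain type, was at 8.61, 9.40 and 9.39 CPM against 10.3, 10.4 and 8.31 CPM (log2 fold change 0.08 ± 0.14). Tpi1 was at 299, 373 and 393 CPM against 277, 344 and 311 CPM, a log2 fold change of -0.19 ± 0.11 in which wild type replicate 1 lay within the transgenic range.

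In the lower part of the pathway the log2 fold changes of Gapdh, Pgk1 and Pgam1, which stand at consecutive steps, had similar sizes. Gapdh was at 799, 837 and 833 CPM in wild type and 710.4, 769 and 717 CPM in transgenic libraries, a log2 fold change of -0.17 ± 0.05 (adjusted p = 0.222 in edgeR). Its groups did not overlap, and a difference of 1.12-fold separated them. Gapdh overlaps Iffo1 on the other strand (14.9 FPKM, log2 fold change 0.19 ± 0.10). Pgk1, the kinase that makes ATP at this stage, was at 365, 452 and 441 CPM against 365, 386 and 325 CPM (log2 fold change -0.23 ± 0.09; adjusted p = 0.319 in edgeR). Pgam1, a phosphoglycerate mutase, was at 147, 171 and 176 CPM against 142, 157 and 129.9 CPM (log2 fold change -0.21 ± 0.08; adjusted p = 0.319 in edgeR). For Pgk1 and Pgam1 wild type replicate 1 lay within the transgenic range, and the difference came from wild type replicates 2 and 3.

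Enolase makes phosphoenolpyruvate, and Eno1 was its main form. Eno1 was at 156, 183 and 188 CPM in wild type and 168, 171 and 162 CPM in transgenic libraries, with a log2 fold change of -0.07 ± 0.07 and overlap. Eno3, the muscle form, was at 11.2, 10.7 and 10.2 CPM against 8.94, 11.6 and 8.64 CPM (log2 fold change -0.14 ± 0.15). By FPKM its group means lay in the other order, 6.21 ± 0.58 and 7.72 ± 1.09, and its FPKM was split over 3 transcripts that each held over 10% of it.

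Pkm was at 1021, 1141 and 1133 CPM in wild type and 1041, 1091 and 963 CPM in transgenic libraries, a log2 fold change of -0.09 ± 0.06 with overlap. The transcript with the M2 exon held 96.1% ± 0.26 (SD, n = 3) of the FPKM of Pkm in wild type and 94.6% ± 0.69 in transgenic libraries. The M1 transcript, which carries the upstream exon shown above, took 3.70%, 3.84% and 4.20% in wild type and 5.62%, 4.64% and 5.98% in transgenic libraries. Its share was thus higher in every transgenic library, with means of 3.91% and 5.41%. The two-sided exact permutation p of 0.1 is the smallest that 3 against 3 libraries can give, and it was not adjusted over the transcripts compared. Shares of transcripts of Slc2a1, Gpi1, Pfkm and Eno3 had the same exact permutation p of 0.1. Both transcripts are 2432 bases long, and the share was estimated by the authors' software from reads over exons that are alike at 61.7% of positions.

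Lactate dehydrogenase is a tetramer of A and B subunits, of which the A form is known to favour making lactate and the B form the return to pyruvate. Ldha (chr7:46841475-46855627, plus strand) was at 636, 721 and 685 CPM in wild type and 568, 577 and 510.3 CPM in transgenic libraries. No transgenic library reached the lowest wild-type library, which was replicate 1. The difference was 1.23-fold, a log2 fold change of -0.30 ± 0.07 (SE, n = 3 each) with a 95% interval from -0.46 to -0.15. Its edgeR adjusted p was 0.159 (unadjusted p = 0.0014), its DESeq2 adjusted p was 0.0011, and over 17 alternatives the adjusted p ranged from 0.0011 to 0.499. Without wild type replicate 1 the log2 fold change was -0.35 (adjusted p = 0.0233 in edgeR), and without the 2 libraries with Y-linked RNA it was -0.30 (adjusted p = 0.0293 in edgeR).

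Ldhb (chr6:142490249-142507957, minus strand) differed in the other direction. It was at 107, 104 and 92.3 CPM in wild type and 119, 109 and 112 CPM in transgenic libraries, without overlap but with replicate 1 of wild type close to replicate 2 of the transgenic group. By FPKM the groups overlapped, with wild type replicate 1 at 67.9 FPKM and transgenic replicate 2 at 67.3 FPKM. The log2 fold change of Ldhb was 0.16 ± 0.07 (adjusted p = 0.323 in edgeR), and DESeq2 gave an adjusted p of 0.233. Neither gene overlaps another gene in the annotation.

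As a share of the FPKM of Ldha and Ldhb together, Ldha made up 84.3%, 86.6% and 87.3% in wild type and 80.6%, 83.4% and 80.9% in transgenic libraries. The means were 86.1% ± 1.57 and 81.6% ± 1.51 (SD, n = 3 each), a difference of -4.44 percentage points. A share within a library does not depend on how libraries are scaled. Its two-sided exact permutation p was 0.1, the smallest possible, and 0.5 after adjustment over the 10 isozyme shares compared. By estimated counts the shares were 87.0% and 82.9%, with the same exact p of 0.1.

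The share of Pfkp among the phosphofructokinases was 24.2% ± 3.58 in wild type and 19.4% ± 3.35 in transgenic libraries by FPKM, with overlap (exact permutation p = 0.3). By estimated counts it was 23.2% and 18.1% (exact permutation p = 0.1). Pfkm went from 15.03% ± 0.66 to 17.9% ± 1.89 of the FPKM without overlap (exact permutation p = 0.1), but its exact p by counts was 0.2. In the other 7 shares the groups overlapped by FPKM, with exact permutation p from 0.2 to 0.7. By estimated counts 2 of these 7 had an exact permutation p of 0.1, Hk1 with mean shares of 82.8% in wild type and 84.7% in transgenic libraries and Pfkl with 61.9% and 64.7%.

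**Figure D4:**
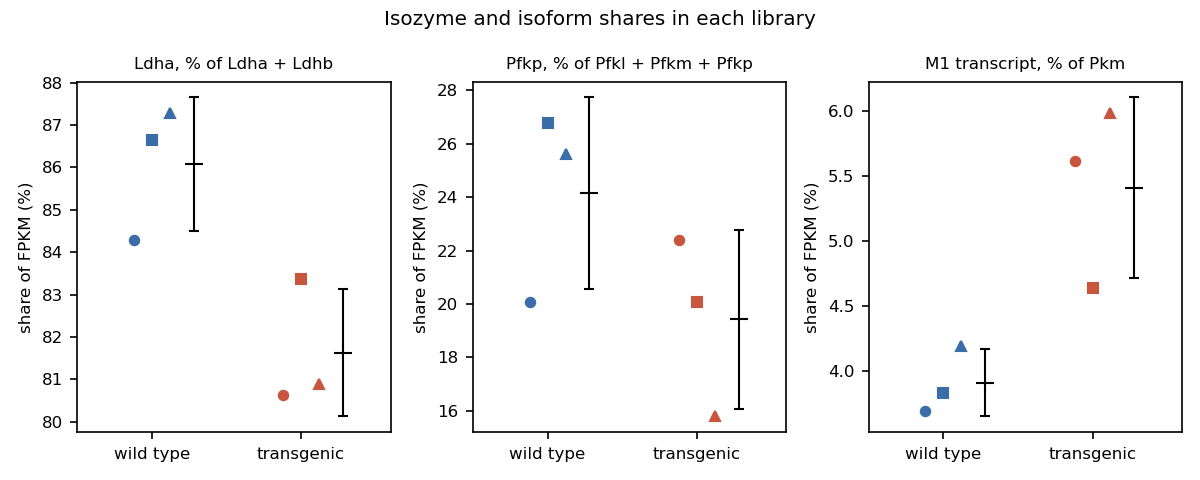
Share of FPKM in percent (y axis, not starting at 0) of Ldha in Ldha and Ldhb, of Pfkp in the 3 phosphofructokinases and of the M1 transcript in Pkm, for wild-type (blue) and transgenic (red) libraries. Points are libraries, with the shape giving the replicate (circle 1, square 2, triangle 3), and bars are mean ± SD (n = 3 each). Mean shares are 86.1% and 81.6%, 24.2% and 19.4%, and 3.91% and 5.41%.

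Slc16a1, the monocarboxylate transporter MCT1 that carries lactate across the plasma membrane (chr3:104638668-104658462, plus strand), was at 275, 323 and 339 CPM in wild type and 244, 278 and 252 CPM in transgenic libraries. Transgenic replicate 2 lay above wild type replicate 1, so the groups overlapped by that pair. Its log2 fold change was -0.27 ± 0.08 (adjusted p = 0.216 in edgeR), a 1.21-fold difference, and the DESeq2 adjusted p was 0.027. Without wild type replicate 1 the log2 fold change was -0.36 (adjusted p = 0.0261 in edgeR). Slc16a3, the exporter MCT4, was low, at 1.99 to 4.03 CPM, with a log2 fold change of -0.26 ± 0.28.

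**Figure D5:**
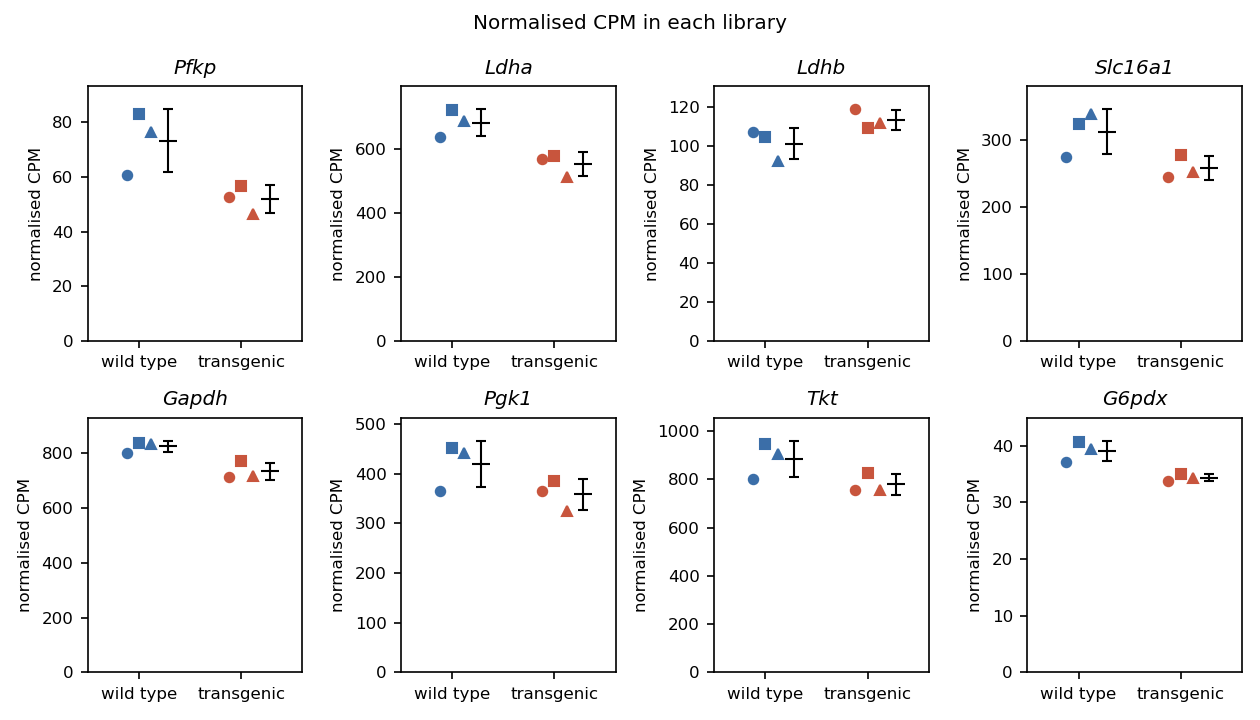
Normalised CPM (y axis, from 0) of 8 genes in the wild-type (blue) and transgenic (red) libraries. Points are libraries, with the shape giving the replicate (circle 1, square 2, triangle 3), and bars are mean ± SD (n = 3 each). The groups do not overlap for Pfkp, Ldha, Ldhb, Gapdh and G6pdx, and wild type replicate 1 (circle) is the lowest wild-type library in every panel but that of Ldhb.

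The control enzymes overlapped between groups. Pdk1, the kinase that switches off pyruvate dehydrogenase, was at 203, 193 and 199.99 CPM against 226, 187 and 189 CPM (log2 fold change 0.02 ± 0.08). Pdha1, a subunit of pyruvate dehydrogenase, was at 249.9, 286 and 258 CPM against 263, 251 and 255 CPM (log2 fold change -0.05 ± 0.06). Pfkfb3 and Pfkfb4 make and break down fructose-2,6-bisphosphate, the activator of phosphofructokinase. Pfkfb3 was at 40.0, 36.0 and 47.8 CPM against 46.1, 42.0 and 49.3 CPM (log2 fold change 0.15 ± 0.11). Pfkfb4 was at 18.5, 14.0 and 14.997 CPM against 17.6, 18.3 and 15.3 CPM (log2 fold change 0.11 ± 0.13).

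In the oxidative arm of the pentose phosphate pathway, G6pdx, the enzyme that opens it and makes NADPH, was at 37.2, 40.7 and 39.5 CPM in wild type and 33.9, 35.0 and 34.3 CPM in transgenic libraries. The groups did not overlap, and the log2 fold change was -0.19 ± 0.08 (adjusted p = 0.334 in edgeR and 0.294 in DESeq2). G6pdx overlaps Ikbkg on the other strand (28.9 FPKM, log2 fold change 0.05 ± 0.06). Pgd, which makes NADPH again at a later step, was at 43.0, 43.8 and 43.4 CPM against 40.6, 40.5 and 34.4 CPM. Its groups did not overlap either, with a log2 fold change of -0.17 ± 0.09 (adjusted p = 0.437 in edgeR). Pgls, the lactonase between them, was at 228, 209 and 213 CPM against 202, 216 and 227 CPM, a log2 fold change of -0.01 ± 0.06 with overlap.

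The non-oxidative arm interconverts pentoses with glycolytic sugars. Tkt, transketolase (chr14:30548359-30574720, plus strand), was at 804, 948 and 907 CPM in wild type and 756, 828 and 755 CPM in transgenic libraries. Wild type replicate 1 lay below transgenic replicate 2, and the log2 fold change was -0.19 ± 0.07 (adjusted p = 0.297 in edgeR and 0.103 in DESeq2). It was called only without wild type replicate 1, at -0.25 (adjusted p = 0.0455 in edgeR). Rpia, which makes ribose-5-phosphate, was at 72.7, 79.0 and 77.1 CPM against 73.8, 68.5 and 65.9 CPM (log2 fold change -0.14 ± 0.07, with overlap). Rpe, the epimerase, was at 78.1, 75.9 and 78.3 CPM against 75.2, 73.6 and 74.1 CPM (log2 fold change -0.06 ± 0.06, without overlap). By FPKM the groups of Rpe overlapped. Taldo1, transaldolase, was at 234, 234 and 218 CPM against 228, 218 and 223 CPM (log2 fold change -0.04 ± 0.05, with overlap). Rpe overlaps Kansl1l on the other strand (44.4 FPKM), whose log2 fold change was 0.21 ± 0.07.

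Genes of the same pathways outside the 32 were counted by list, and edgeR called 0 in each of the lists of this and the next paragraph after adjustment. Of 18 tested other glycolysis genes, 1 was lower (5.56%) and 1 was higher at unadjusted p under 0.05. These counts are near the shares of all genes, 7.7% lower and 5.71% higher. Pgam2, the muscle mutase, was at 5.98, 5.70 and 7.69 CPM in wild type and 9.85, 9.68 and 9.81 CPM in transgenic libraries (log2 fold change 0.60 ± 0.16; adjusted p = 0.182 in edgeR and 0.0452 in DESeq2). Its groups did not overlap, and its direction was the opposite of that of Pgam1. Pgm2, a phosphoglucomutase, had a log2 fold change of -0.21 ± 0.09. Of 7 tested other pentose phosphate and ribose genes, 1 (14.3%) was lower at an unadjusted p under 0.05, against 7.7% of all genes. This was Prps1, which makes the ribose donor of nucleotide synthesis, at 60.9, 75.5 and 75.0 CPM against 56.3, 61.4 and 53.0 CPM (log2 fold change -0.31 ± 0.10; adjusted p = 0.228 in edgeR). Wild type replicate 1 and transgenic replicate 2 overlapped there. H6pd, the form of the oxidative arm in the endoplasmic reticulum, had a log2 fold change of 0.11 ± 0.06. Of 11 tested genes for entry of pyruvate into mitochondria, 1 (9.09%) was lower at an unadjusted p under 0.05, against 7.7% of all genes. This was Pdhx, a subunit of the pyruvate dehydrogenase complex (log2 fold change -0.23 ± 0.08). Mpc2, a subunit of the mitochondrial pyruvate carrier, had a log2 fold change of -0.18 ± 0.09.

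Regulators of glycolysis and other targets of HIF-1 were counted in the same way, beside 7360 of all 14653 genes with a log2 fold change above 0 and 5.71% higher at an unadjusted p under 0.05. Of 16 regulators 11 had a log2 fold change above 0, and 3 were higher, with none lower, at unadjusted p under 0.05. Txnip, which restrains glucose uptake, was at 231, 259 and 202 CPM in wild type and 322, 279 and 253 CPM in transgenic libraries (log2 fold change 0.30 ± 0.11; adjusted p = 0.261 in edgeR and 0.0356 in DESeq2). Wild type replicate 2 lay above transgenic replicate 3. Mlxip, a glucose-sensing partner of MLX, was at 54.2, 53.9 and 55.7 CPM against 65.6, 63.2 and 63.0 CPM, without overlap (log2 fold change 0.23 ± 0.07; adjusted p = 0.203 in edgeR). Of 14 tested other HIF targets 10 were above 0, with 3 higher and none lower at unadjusted p under 0.05. Ddit4, an inhibitor of mTORC1 signalling, was at 23.2, 37.0 and 28.1 CPM against 53.5, 46.5 and 48.6 CPM. It did not overlap, with a log2 fold change of 0.75 ± 0.15 (adjusted p = 0.159 in edgeR and 5.56e-05 in DESeq2). Vegfa was at 51.8, 51.9 and 51.8 CPM against 54.6, 65.8 and 69.1 CPM, without overlap (log2 fold change 0.28 ± 0.09; adjusted p = 0.236 in edgeR). Hif1a and Myc, named after their values were seen, had log2 fold changes of -0.08 ± 0.05 and -0.08 ± 0.06.

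The authors' deposited table lists 203 transcripts of the 32 genes, of which 151 were tested there. It marks 0 of them as significant, against 111 transcripts in the whole table. In the authors' deposited table the lowest q-value among them was 0.75, for the main transcript of Ldha. For 21 of the 32 genes 1 transcript held over 80% of the FPKM. Reads can be shared with retrocopies and pseudogenes of these genes. Of 9 such symbols looked up, the 7 in the table summed to 0.726 to 1.13 FPKM per library. Gapdh-ps15 and Tpi-rs11 were not in it, and pseudogenes under other symbols were not counted. How far reads were shared was not tested.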

How the data were processed

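RNA of 6 DN3a thymocyte libraries was sequenced after depletion of ribosomal RNA. Per the submitters' processing notes, TopHat2 and Cuffdiff were used with the mm10 build. Versions, annotation and strandedness: not given in the sources used here. Per the file headers, the authors' deposited table holds, for each transcript, 1 estimated count of raw fragments and 1 FPKM value in every library, both made by their quantification of aligned reads. The authors' own log2 fold changes, p-values and q-values, deposited in the same table, are used only where it is named.

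Counts and FPKM of 100144 transcripts were summed per gene symbol, and the counts were rounded to whole numbers. The 197 genes with transcripts at failed loci were left out. Genes were filtered by filterByExpr (minimum count 10, minimum total count 15), scaled by TMM and tested with edgeR 4.0.16 (R 4.3.3), 3 transgenic against 3 wild-type libraries. The test was the quasi-likelihood test with prior degrees of freedom of 5.61 beside 4 residual ones, without covariates, two-sided, with Benjamini-Hochberg adjustment over 14653 genes and a threshold of 0.05. Standard errors of log2 fold changes were derived from the F statistic. Isozyme shares were compared with exact permutation tests over libraries.

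Alternatives were DESeq2 1.42.0, limma 3.58.1 on log2(FPKM + 0.1) and log2(FPKM + 0.5), other scalings and filters, failed loci kept, a covariate for Y-linked RNA, the replicate block, and leaving out libraries. Counts of genes at an unadjusted p under 0.05 under each alternative were added after seeing the data. The members and lists were chosen with earlier results of these data known. Besides the 32 genes and Gata3, the 2 genes with the smallest p of each other pathway list were named, with markers and neighbouring genes whose values stand beside a result, as were transcripts with at least 10% of a member's FPKM where the text speaks of them. The M1 transcript of Pkm, at 4.64% of the FPKM of Pkm, was named outside that rule. At 39022272 to 46985605 fragments per library, counting error was small beside the spread between libraries (common biological coefficient of variation 19.5%) for all but rare transcripts. A chi-square of 16.7 to 44.2 per gene separated libraries of 1 group, so none was treated as a duplicate. Gene positions come from GENCODE M21 (GRCm38).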

Additional observations from a re-analysis of the deposited data

How the results depend on the processing

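The number of the 32 genes called lower was 0 with edgeR, 3 with DESeq2, and 2 each with a covariate for Y-linked RNA, with no filter on low counts and without the 2 libraries with Y-linked RNA. Leaving out 1 library at a time gave 0 to 4, the 4 without wild type replicate 1. Without any other single library, edgeR called only 0.0066% to 0.0132% of all genes in either direction. None was called higher under any of the 17 alternatives. The median log2 fold change of the 32 genes stayed below 0 in all of them, from -0.12 without wild type replicate 1 to -0.06 without transgenic replicate 3. The number lower at an unadjusted p under 0.05, 8 with edgeR, was 12 without wild type replicate 1. It was 4 without wild type replicate 2, wild type replicate 3 or transgenic replicate 3, and 5 with limma or without transgenic replicate 1. The share of all genes moved as well, from 7.7% with edgeR to 10.1% without wild type replicate 1. Without wild type replicate 2, wild type replicate 3 and transgenic replicate 3 that share was 4.49%, 4.97% and 5.07%. With limma it was 5.69% and 5.73%, and 6.72% without transgenic replicate 1. The number of the 32 genes that were higher was 0 with limma and without transgenic replicate 1 or 3. By CPM in place of FPKM the 4 highest steps held 52.6% in place of 54.5%.

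Whether replicate numbers pair the libraries is unsettled: same-numbered libraries had correlations of 0.295, 0.34 and 0.0015. Wild type replicates 1 and 2 correlated best with the transgenic library of the same number, but wild type replicate 3 correlated best with transgenic replicate 2 (0.288). With the replicate number as a block edgeR called 0 of the 32 genes and 14 genes in all, against 2 without it, and the median of the 32 was -0.08.

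Of 544 values for the 32 genes, 500 kept direction and side of the threshold, 13 passed it under an alternative and 31, of 10 genes, changed sign. With limma on log2(FPKM + 0.1) and log2(FPKM + 0.5), Slc2a3 was at 0.13 and 0.12, Hk1 at -0.023 and -0.023, Hk2 at 0.16 and 0.16, Gpi1 at 0.0097 and 0.0097, Eno3 at 0.30 and 0.29, Pdk1 at -0.10 and -0.10, and Pfkfb4 at -0.062 and -0.058. Gpi1, at 0.00 with edgeR, was at 0.0034 with DESeq2, 0.0032 with median-of-ratios scaling, 0.00023 without mitochondrial, small RNA and ribosomal RNA features, 0.0031 with no filter, 0.019 with upper-quartile scaling and 0.025 without the 2 libraries with Y-linked RNA. That last setting put Slc2a1 at -0.0056, and upper-quartile scaling put Pgls at 0.012. Leaving out 1 library at a time changed the sign of Slc2a3 (range -0.24 to 0.024), Hk1 (-0.022 to 0.0498), Gpi1 (-0.013 to 0.0304), Pdk1 (-0.074 to 0.069), Pdha1 (-0.085 to 0.018) and Pgls (-0.048 to 0.037). Differences in isozyme share changed sign for Hk1 by estimated counts (1.87 percentage points) and, without 1 library, from -4.35 to 0.138, for Eno1 by estimated counts (0.311), for Pfkfb3 without the 2 libraries with Y-linked RNA (-0.0287), for Slc2a1 without 1 library (-2.78 to 5.29) and for Slc16a1 without 1 library (-0.394 to 0.108). FPKM and count values differ by construction in how they weigh transcript lengths, and the cause of the other changes was not tested. With 3 libraries a group, exact tests cannot go below 0.1.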
